A study of Mus musculus with 13 samples.

Results

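The regulators of G-protein signalling (RGS) described here are 10 listed genes, Rgs2, Rgs3, Rgs4, Rgs5, Rgs6, Rgs10, Rgs12, Rgs14, Rgs16 and Rgs7bp, matched by gene symbol among the 55487 genes of a mouse RNA-seq count table that holds 24 RGS genes in all. They were compared between pacemaker cells (PC) of the sinoatrial node, where each heartbeat starts, and right atrial cardiomyocytes (RACM), the working muscle beside the node. Both cell types were flow-sorted from hearts of neonatal mice with Hcn4-GFP and Myh6-mCherry reporters, and tissue from the junction of node and right atrium of 8 to 10 hearts was pooled for each biological replicate. Each cell type had 3 libraries, titled p0, p2 and p4. What the p number means is not given in the labels. Values of 3 libraries are listed below in the order p0, p2 and p4. A further 7 samples, profiled by ATAC-seq (4 PC, 3 RACM), were not analysed here.

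A receptor that binds its ligand loads a heterotrimeric G protein with GTP, and the alpha and beta-gamma subunits then act on channels and enzymes until the alpha subunit hydrolyses the GTP. RGS proteins speed that hydrolysis and so shorten the signal. In the sinoatrial node, acetylcholine acts through the muscarinic M2 receptor and Gi/o proteins to open potassium channels and lower cAMP, which slows the beat, and Rgs4 and Rgs6 are known as brakes on this pathway.

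Rgs4, Rgs5 and Rgs2 all lie on chromosome 1, and their promoters are shown because, of the listed genes tested, Rgs4 had the largest rise and Rgs2 the largest fall in PC, while Rgs5 is the direct neighbour of Rgs4. The sequences are from RefSeq on GRCm38.p6, the build that is also called mm10. Each is given 5′ to 3′ on the strand of its gene, from 250 bases before the annotated start to 50 bases after it, and capitals mark exact matches to any of the 6 motifs searched on both strands: AGGTGTGA (T-box factors), CTAATG (ISL1), TNAAGTG (NKX2-5), CTA and TAG spaced by any 4 bases (MEF2), TGACGTCA (the cAMP response element) and TATAAA (the TATA box). The Rgs4 promoter is at chr1:169747593-169747892 on the minus strand, the Rgs5 promoter at chr1:169655251-169655550 on the plus strand and the Rgs2 promoter at chr1:144004100-144004399 on the minus strand.
Rgs4: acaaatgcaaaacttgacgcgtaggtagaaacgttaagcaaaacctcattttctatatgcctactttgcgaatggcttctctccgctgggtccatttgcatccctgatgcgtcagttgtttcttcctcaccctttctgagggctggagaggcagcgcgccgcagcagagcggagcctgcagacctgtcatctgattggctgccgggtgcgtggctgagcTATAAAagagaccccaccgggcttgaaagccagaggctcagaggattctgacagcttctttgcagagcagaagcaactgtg
Rgs5: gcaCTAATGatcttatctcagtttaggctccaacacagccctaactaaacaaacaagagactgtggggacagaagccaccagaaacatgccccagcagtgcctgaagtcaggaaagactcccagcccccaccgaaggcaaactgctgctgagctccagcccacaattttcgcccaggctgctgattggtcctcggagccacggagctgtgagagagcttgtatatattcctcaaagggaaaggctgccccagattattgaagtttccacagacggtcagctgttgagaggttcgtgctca
Rgs2: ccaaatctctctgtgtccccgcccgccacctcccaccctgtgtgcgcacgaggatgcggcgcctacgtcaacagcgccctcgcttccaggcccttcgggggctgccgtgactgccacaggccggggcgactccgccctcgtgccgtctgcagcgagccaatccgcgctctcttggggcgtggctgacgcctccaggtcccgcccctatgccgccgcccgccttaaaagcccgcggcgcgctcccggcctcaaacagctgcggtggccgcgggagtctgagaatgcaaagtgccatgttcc

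The Rgs4 promoter held a TATAAA that began 31 bases before the annotated start, and no other motif searched. A TATAAA occurred in 13.6% of the 32851 promoters of 300 bases in the RefSeq table. The Rgs5 promoter held a CTAATG, which 7.36% of all promoters held. None of these letters occurred in the Rgs2 promoter, which had 70% G and C and 33 CG dinucleotides, against 53% and 13 for Rgs4 and medians of 52.7% and 7 over all promoters. RefSeq promoters were matched for 9 of the 10 genes, 11 promoters in all. Among these 11, TATAAA occurred in 3 (Rgs4 and both of Rgs3), CTAATG in 2 (Rgs5 and Rgs7bp), AGGTGTGA and TGACGTCA did not occur (1.28% and 1.79% of all promoters), TNAAGTG occurred in 1 (11.5%) and the MEF2 motif in 1 (3.69%). The TATAAA of the 2 Rgs3 promoters began 100 and 177 bases before the annotated starts, against 31 for Rgs4. A match or its absence in these windows is a description of the letters only.

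Total counts ran from 14141151 to 22290996 over the 6 libraries. All 10 genes of a pacemaker cell marker list rose in PC, among them Hcn4, whose reporter was used in the sort. Of 10 atrial cardiomyocyte markers 5 fell there while none rose, and that list holds Myh6, the gene of the other reporter. Over all genes tested, 3.69% rose and 3.57% fell in PC. Markers of other cell types were present in both sorts, those of macrophages and fibroblasts more so in RACM. Summed macrophage markers (12 genes, all with the higher mean in RACM, none at 0 in either cell type) ran from 10.9 to 55.9 CPM (counts scaled to a common library size of 1e+06) in PC and from 181 to 846 CPM in RACM. Summed fibroblast markers (10 genes, all higher on average in RACM, none at 0) ran from 920 to 2257 CPM in PC and from 1791 to 10953 CPM in RACM. Neuron and glia markers summed to between 9.12 and 14.4 CPM in PC and between 11.2 and 12.4 CPM in RACM. Among them Prph was at 0 in PC and Snap25 at 0 in RACM. In bulk samples fewer cells of a type and less RNA per cell cannot be told apart.

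Of the 10 genes, 9 passed the filter on low counts and were tested, and Rgs14 was not. Rgs4, Rgs6, Rgs3 and Rgs12 rose in PC and Rgs2 fell, at a Benjamini-Hochberg adjusted p below 0.05 by edgeR's quasi-likelihood test over 18015 genes. Rgs5, Rgs10, Rgs16 and Rgs7bp did not pass. Over all genes tested, 3.69% were called higher and 3.57% lower in PC, 7.27% in all. The listed genes were chosen with earlier results of these data known, so their count of 4 higher and 1 lower supports nothing beyond these genes. PC and RACM libraries did not overlap for 6 of the 9 genes (PC above for 4, RACM above for 2), as for 26.9% of all genes tested. The median log2 fold change of the 9 was 0.53, against 0.01 over all genes. Differences are given as PC minus RACM throughout.

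**Figure D1:**
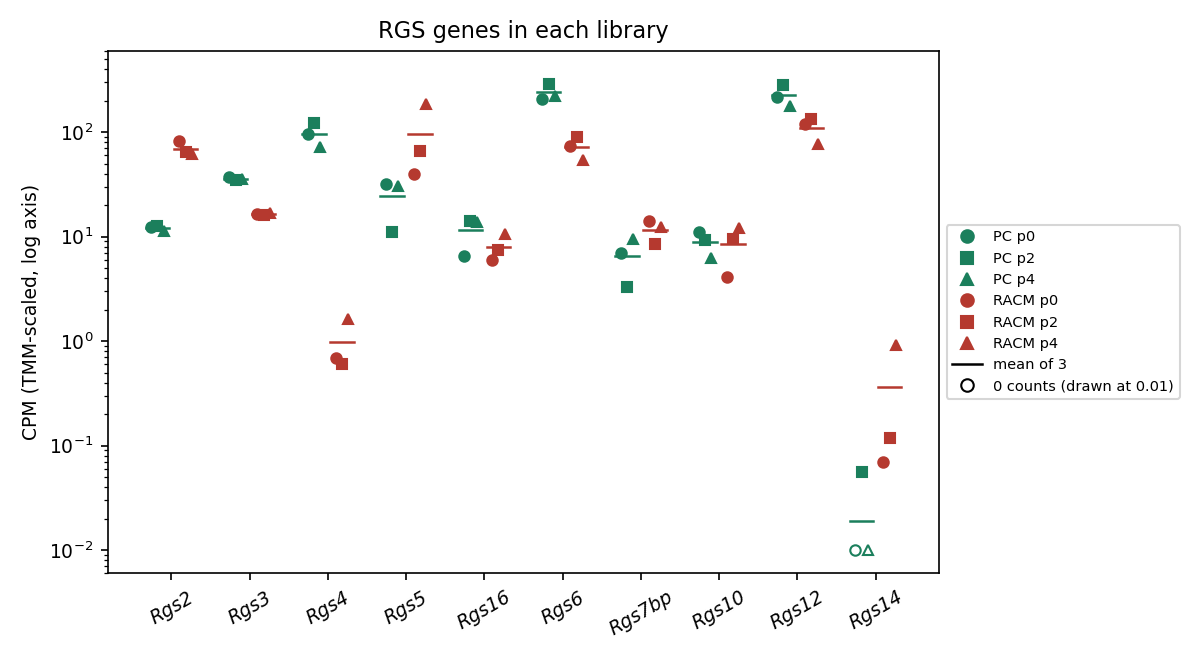
CPM of the 10 listed RGS genes on a log axis, 1 point per library, with PC in green, RACM in red and a bar at the mean of 3 libraries; libraries at 0 counts are open symbols at the foot of the axis. Rgs4 separates the cell types most widely (71.8 to 122 CPM in PC, 0.597 to 1.63 CPM in RACM), and Rgs2 is the reverse (11.2 to 12.6 CPM against 62.0 to 81.6 CPM).

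The R4 subfamily, small proteins that consist of little more than the RGS domain, held the largest fitted differences in both directions among the 9 genes tested, the rise of Rgs4 and the fall of Rgs2. Rgs4, which acts on Gi/o and Gq alpha subunits (ENSMUSG00000038530, mm10 chromosome 1 from 169741477 to 169747642, minus strand, 4 merged exon blocks), was at 96.3, 122 and 71.8 CPM in the PC libraries. Across the RACM libraries it was at 0.689, 0.597 and 1.63 CPM, from 10, 10 and 34 counts. The lowest PC library was 44.0 times the highest RACM library. The log2 fold change was 6.58 ± 0.41 (SE, n = 3 libraries each; edgeR adjusted p = 4.38e-05), which ranked 28 among the 18015 genes in size of rise and 20 by p. It passed under all 14 alternatives, with log2 fold changes from 6.32 to 7.37. Its exons overlapped no other annotated gene.

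Rgs5, a gene of the same subfamily and a common marker of pericytes, ends 45.7 kb from the end of Rgs4 with no annotated gene between them (ENSMUSG00000026678, chromosome 1 from 169655501 to 169695813, plus strand). It ran the other way in level: 31.8, 11.1 and 30.8 CPM in PC, and 40.1, 65.5 and 184 CPM in RACM. All RACM libraries lay above all PC libraries, but those of p0 were close (40.1 against 31.8 CPM) and RACM p4 stood far above the rest. The difference did not pass (log2 fold change -1.98 ± 0.57, edgeR adjusted p = 0.0749). With the p number as a replicate block it passed (adjusted p = 0.0322, where 11.6% of all genes were called). It also passed with no filter on low counts (adjusted p = 2.02e-05), where 2339 genes were called against 1309 in the main fit. Its log2 fold change there was still -1.98. Without RACM p0 it passed as well (adjusted p = 0.0348, with 1338 genes called). Without RACM p4 its log2 fold change was -1.10 (adjusted p = 0.217).

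Several marker lists stood in the same order as Rgs5 over the 3 RACM libraries, but not over the 3 PC libraries. Where Rgs5 was at 40.1, 65.5 and 184 CPM in RACM, summed fibroblast markers were at 1791, 3904 and 10953 CPM, macrophage markers at 181, 482 and 846 CPM and endothelial markers at 136, 138 and 207 CPM, while neuron and glia markers were at 12.4, 11.2 and 11.3 CPM. Where Rgs5 was at 31.8, 11.1 and 30.8 CPM in PC, the fibroblast sums were 920, 1050 and 2257 CPM, the macrophage sums 28.3, 10.9 and 55.9 CPM and the endothelial sums 91.3, 56.4 and 137 CPM. These 3 lists were highest in PC p4, whereas Rgs5 was slightly higher in PC p0.

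The smooth muscle and pericyte list, the one nearest to the known cell type of Rgs5, was mixed. Of its 12 genes 3 rose and 3 fell in PC, beside 3.69% and 3.57% of all genes tested. The mean was higher in RACM for 6 of them, and none was at 0. The list summed to 844, 644 and 888 CPM in PC and 508, 567 and 764 CPM in RACM. In RACM this sum stood in the order of Rgs5, and in PC it was highest in p4, unlike Rgs5. Abcc9, a potassium channel subunit gene that is not particular to pericytes, was at 111, 106 and 62.2 CPM in RACM. It was lowest in RACM p4, where Rgs5 was highest, and between 5.76 and 12.7 CPM in PC (log2 fold change -3.33 ± 0.34, edgeR adjusted p = 7.95e-04). Cnn1, a contractile protein of smooth muscle, rose in PC (log2 fold change 1.07 ± 0.17, edgeR adjusted p = 0.00786). Pdgfrb, a receptor that marks pericytes and fibroblasts, was at 19.7, 49.2 and 72.9 CPM in RACM, and Notch3, another pericyte gene, at 8.27, 32.2 and 73.4 CPM. Pdgfrb and Notch3 were chosen after their values were seen, and unlike Abcc9 they stood in the order of Rgs5. They do not stand for the 12 genes of the list, whose levels per library are not all given here. The part of these cells in the level of Rgs5 was not tested.

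**Figure D2:**
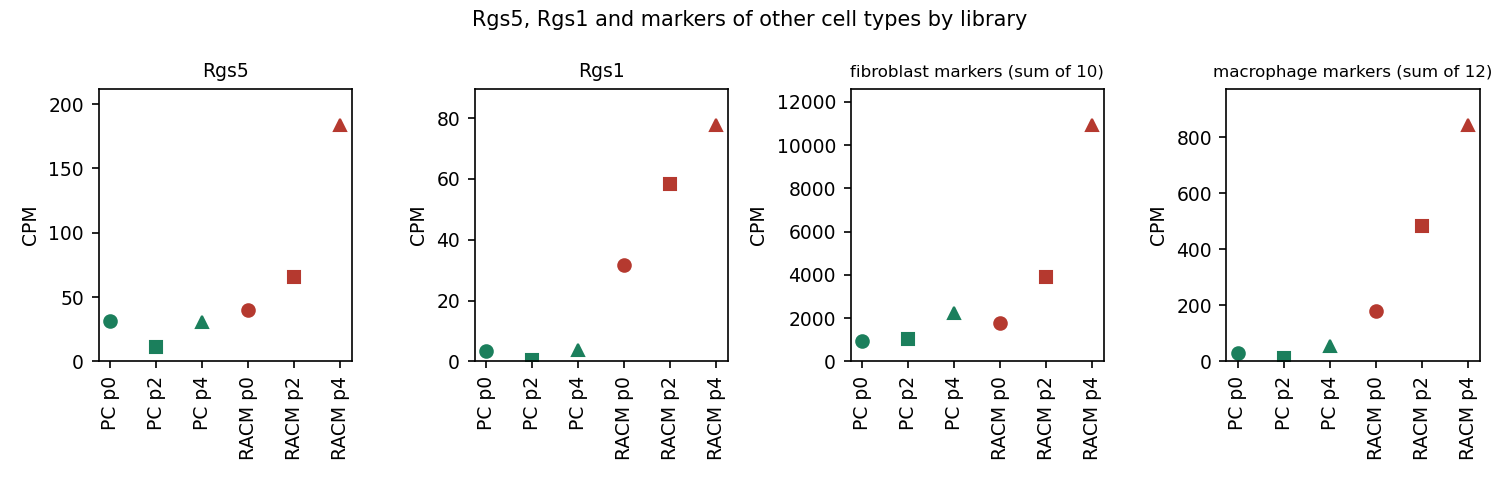
CPM per library of Rgs5, of Rgs1, and of the summed fibroblast and macrophage marker lists, each panel on its own linear axis from 0, with PC in green and RACM in red. RACM p4 is highest in all 4 panels, at 184 CPM for Rgs5 and 10953 CPM for the fibroblast sum.

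Rgs2, which prefers the Gq alpha subunit (ENSMUSG00000026360, chromosome 1 from 143999338 to 144004161, minus strand), was at 12.3, 12.6 and 11.2 CPM in the PC libraries. In RACM it was at 81.6, 64.4 and 62.0 CPM. The lowest RACM library was 4.91 times the highest PC library, and the spread within PC was narrow (12.05 ± 0.741 CPM, SD, n = 3). The log2 fold change was -2.52 ± 0.19 (edgeR adjusted p = 1.51e-04), and it passed under all 14 alternatives (from -2.60 to -2.38). Unlike Rgs5, Rgs2 was highest in RACM p0, where the summed fibroblast, macrophage and endothelial markers were lowest among the RACM libraries. It was lowest in RACM p4, where they were highest, but RACM p2 and p4 were close (64.4 and 62.0 CPM). The part of these cells in the level of Rgs2 was not tested.

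Rgs3, a longer member of the subfamily that acts on Gi and Gq (ENSMUSG00000059810, chromosome 4 from 62559847 to 62704001), had the tightest replicates of the 10 genes. It was at 36.8, 34.5 and 35.4 CPM in PC and at 16.3, 16.2 and 16.9 CPM in RACM. The log2 fold change was 1.11 ± 0.18 (edgeR adjusted p = 0.00746), and it passed under all 14 alternatives, with adjusted p up to 0.0475. Rgs16, which acts on Gi and Gq (chromosome 1 from 153740349 to 153745468), was at 6.51, 14.2 and 13.9 CPM in PC and at 5.93, 7.40 and 10.6 CPM in RACM. These ranges overlapped, and the difference did not pass (log2 fold change 0.53 ± 0.39, edgeR adjusted p = 0.505). Of the exon bases of Rgs16, 10.1% were shared with Gm28513, and reads there could belong to either gene because counting ignored strand.

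Rgs6 belongs to the R7 subfamily, whose proteins act on Gi/o, carry a G-gamma-like domain and exist as complexes with the G-protein subunit Gnb5. Rgs6 (ENSMUSG00000021219, chromosome 12 from 82588292 to 83162056) was at 209, 291 and 219 CPM in the PC libraries and at 73.1, 90.2 and 53.8 CPM in RACM. The groups did not overlap, and p2 was the highest library of each. The log2 fold change was 1.73 ± 0.23 (edgeR adjusted p = 0.00299), and it passed under all 14 alternatives (from 1.55 to 1.92). Its partner gene Gnb5 did not differ detectably, at 37.9 ± 4.63 CPM in PC against 35.4 ± 10.6 CPM in RACM (log2 fold change 0.10 ± 0.24, edgeR adjusted p = 0.86).

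Rgs7bp is not an RGS protein itself but a lipid-anchored partner that tethers R7 complexes to the plasma membrane (ENSMUSG00000021719, chromosome 13 from 104945904 to 105054930). It was at 6.95, 3.27 and 9.47 CPM in PC and at 13.99, 8.47 and 12.4 CPM in RACM. PC p4 lay above RACM p2, so the groups overlapped. The difference did not pass (log2 fold change -0.82 ± 0.42, edgeR adjusted p = 0.315), and its sign was negative under all 14 alternatives (from -1.18 to -0.49). Of Rgs6 and its membrane anchor, Rgs6 rose and the anchor gene had a negative difference that did not pass. Rgs7, another R7 gene, was at 5.13 ± 3.14 CPM in PC against 4.26 ± 3.77 CPM in RACM (log2 fold change 0.26 ± 0.80, edgeR adjusted p = 0.895). Its sign changed without PC p2 or RACM p0. Rgs11, also of the R7 subfamily, was at 1.81 ± 0.759 CPM and 2.05 ± 0.899 CPM (log2 fold change -0.18 ± 0.61, edgeR adjusted p = 0.905), with a sign that changed without RACM p4.

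The R12 subfamily comprises Rgs12 and Rgs14, multidomain scaffolds with a GoLoco motif that holds Gi alpha in its GDP form, and the small Rgs10. Rgs12 (ENSMUSG00000029101, chromosome 5 from 34949445 to 35039644) was at 217, 280 and 179 CPM in the PC libraries and at 121, 132 and 76.8 CPM in RACM. The groups did not overlap, with p2 highest and p4 lowest in each. The log2 fold change was 1.04 ± 0.24 (edgeR adjusted p = 0.0366). That call was lost with upper-quartile scaling (adjusted p = 0.052) and when p0 or p2 of PC (0.0951 and 0.0982) or any 1 RACM library (p0 0.0575, p2 0.0723, p4 0.0774) was left out. It was kept with the replicate block (adjusted p = 0.00292), and 5.5% of its exon bases were shared with Gm43791.

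Rgs10, which immune cells also express (chromosome 7 from 128373621 to 128418758), was at 11.01, 9.20 and 6.27 CPM in PC and at 4.13, 9.49 and 12.001 CPM in RACM. The groups overlapped fully, and the log2 fold change was 0.04 ± 0.43 (edgeR adjusted p = 0.972), with a sign that changed under 4 of 14 alternatives, upper-quartile scaling among them. Rgs14 (chromosome 13 from 55369732 to 55384687) was too low to test, with 0, 1 and 0 counts across the PC libraries and 1, 2 and 19 counts in RACM. Its RACM over PC ratio was 24.03, with a 95% counting interval from 3.89 to 992, and 19 of the 22 RACM counts were from RACM p4.

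**Figure D3:**
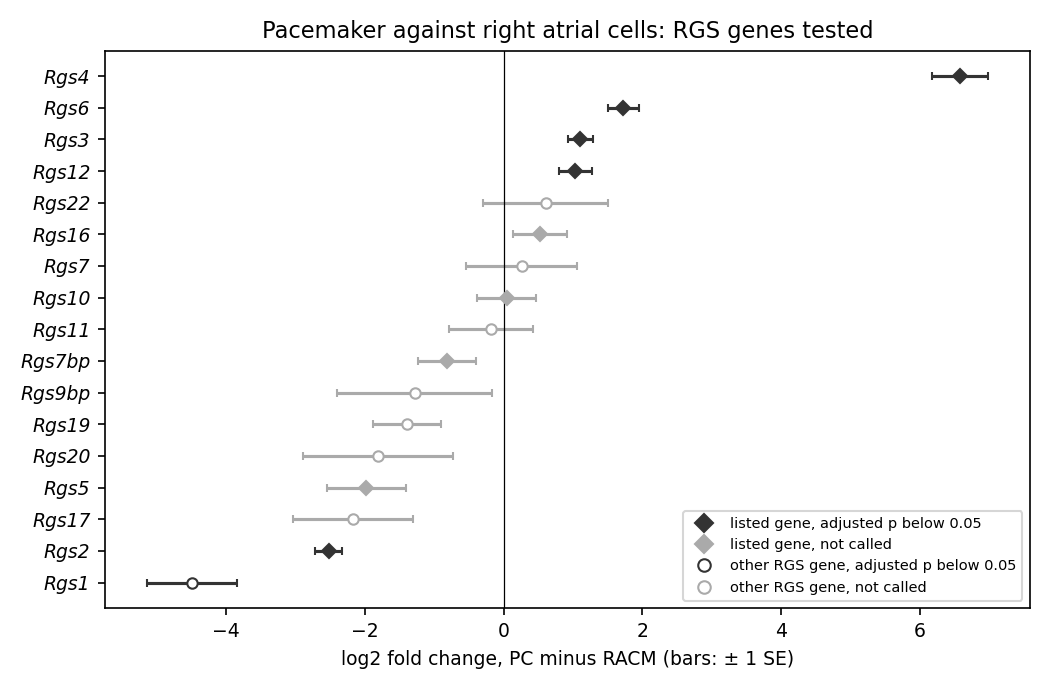
Log2 fold change of PC minus RACM with ± 1 SE for the 17 RGS genes tested, sorted by size; filled diamonds are listed genes, open circles the other RGS genes, and dark symbols passed the edgeR test at an adjusted p below 0.05. Rgs4 (6.58) and Rgs1 (-4.50) lie at the ends.

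Levels of different genes were compared as CPM per kilobase of exon (RPKM), and each gene's share of the summed RPKM of the 10 genes was taken per library. The table gives 1 count per gene, so shares between the transcripts of 1 gene were not computed. In PC Rgs4 had the highest mean level, 31.2 ± 8.09 RPKM, followed by Rgs12 at 26.6 ± 6.01 RPKM and Rgs6 at 23.9 ± 4.49 RPKM, and their ranges over libraries overlapped. Within each PC library Rgs4 was the highest of these 3, at 31.1, 39.4 and 23.2 RPKM against 25.6, 33.0 and 21.1 RPKM for Rgs12 and 20.8, 29.1 and 21.9 RPKM for Rgs6. That order rests on the exon length, which merges all annotated exons and can exceed any 1 transcript. It was 3098 bases for Rgs4, 8487 for Rgs12 and 10023 for Rgs6. In CPM Rgs4 was the lowest of these 3 in PC, at a mean of 96.7 against 225 for Rgs12 and 240 for Rgs6. Rgs5 (5.40 ± 2.57 RPKM), Rgs10 (5.16 ± 1.40 RPKM), Rgs16 (4.92 ± 1.85 RPKM), Rgs2 (3.32 ± 0.204 RPKM) and Rgs3 (3.30 ± 0.107 RPKM) came next, and the ranges of neighbours in that order overlapped. Rgs7bp was at 0.928 ± 0.441 RPKM.

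In RACM the order was another. Rgs5 (21.2 ± 16.9 RPKM) and Rgs2 (19.1 ± 2.94 RPKM) were highest, then Rgs12 (13.0 ± 3.46 RPKM), Rgs6 (7.22 ± 1.82 RPKM), Rgs10 (4.99 ± 2.35 RPKM) and Rgs16 (3.41 ± 1.02 RPKM). Rgs5 stood above Rgs2 in RACM p4 alone, and in RACM p0 Rgs2 was at 22.5 RPKM and Rgs5 at 8.82 RPKM. Rgs2, Rgs12 and Rgs6 did not overlap one another between libraries, whereas the ranges of Rgs6 and Rgs10, and of Rgs10 and Rgs16, overlapped. Rgs7bp (1.64 ± 0.401 RPKM) and Rgs3 (1.53 ± 0.036 RPKM) differed by less than the spread of Rgs7bp. Rgs4 was at 0.314 ± 0.185 RPKM, with Rgs14 alone below it.

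As a share of the 10 genes, Rgs4 made up 30.7%, 32.1% and 25.7% across the PC libraries, and 0.362%, 0.282% and 0.601% in RACM. Rgs2 made up 3.34%, 2.85% and 3.43% in PC and 36.6%, 26.0% and 19.5% in RACM. The share of Rgs12 was 25.2%, 27.0% and 23.4% in PC, just above its 23.1% and 22.8% in RACM p0 and p2. In RACM p4 it was 10.3%, where Rgs5 alone made up 46.2%. Without division by exon length Rgs6 had the highest mean share in PC (36.2%) and Rgs4 14.5%, since Rgs6 has 10023 exon bases and Rgs4 3098. The RPKM ratio of Rgs4 to Rgs2 was 9.18, 11.3 and 7.497 in PC and 0.0099, 0.0108 and 0.0308 in RACM.

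**Figure D4:**
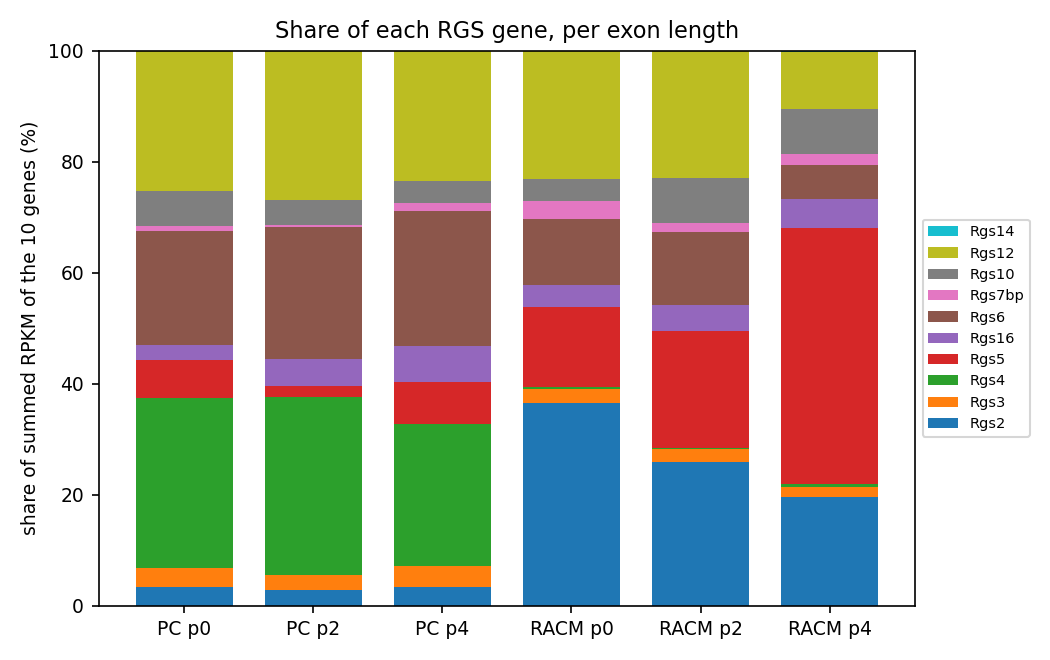
Stacked shares (%) of the 10 listed RGS genes in their summed RPKM, 1 bar per library. Rgs4 holds 25.7% to 32.1% of each PC bar and at most 0.601% of a RACM bar, and Rgs5 holds 46.2% of the RACM p4 bar.

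The summed level of the 10 genes was 101, 122 and 90.2 RPKM across the PC libraries and 61.5, 68.4 and 87.6 RPKM in RACM. These ranges did not overlap, but PC p4 and RACM p4 were close. Without Rgs4 the sum was 73.5 ± 8.48 RPKM in PC and 72.2 ± 13.4 RPKM in RACM, a difference well within the spread. Over all 24 RGS genes the sum ran from 94.8 to 126 RPKM in PC and from 70.6 to 108 RPKM in RACM, and the ranges overlapped. With 3 libraries against 3 an exact permutation test cannot go below p = 0.1, so none is given for these sums.

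Of the 14 other RGS genes, 8 were tested, none rose and 1 fell, with a median log2 fold change of -1.34. That is 12.5% called, near the 7.27% of all genes tested. The gene that fell was Rgs1, an R4 regulator known from leukocytes, at 3.39, 0.395 and 3.58 CPM in PC and 31.7, 58.2 and 77.9 CPM in RACM (log2 fold change -4.50 ± 0.65, edgeR adjusted p = 0.00468). It was also the highest of the 14 per length, at 8.05 ± 3.34 RPKM in RACM, and its annotated 6947 exon bases form 1 unbroken block. Across the RACM libraries Rgs1 stood beside summed macrophage markers of 181, 482 and 846 CPM, with Lyz2, a lysozyme gene of macrophages, at 34.9, 76.1 and 149 CPM and Cd68, a lysosomal macrophage marker, at 15.9, 29.8 and 43.6 CPM. The part of macrophages in the level of Rgs1 was not tested.

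RGS genes lie in groups on chromosome 1. Rgs2 is followed by Rgs13, Rgs1, Rgs21 and Rgs18, with gaps from 64.9 to 267.4 kb, and of these neighbours Rgs13 had no count in any library, Rgs21 had 1 count over the 6 libraries and Rgs18 had 17. Rgs2 and Rgs1 were thus the members of that group with more than a few counts, and both were lower in PC. Rgs16 lies 40.0 kb from Rgs8, which had 85 counts in PC (16, 62 and 7) and 4 in RACM and was not tested, at a RACM over PC ratio of 0.0514 (95% counting interval from 0.0137 to 0.137). In the pair of Rgs5 and Rgs4 the RPKM ratio of Rgs4 to Rgs5 was 4.45, 16.2 and 3.42 across the PC libraries and between 0.0130 and 0.0252 in RACM.

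Some genes had a pattern over the 6 libraries close to that of a listed gene, measured as the Euclidean distance of log2(CPM + 1) centred on each gene's mean, among 9846 genes whose mean reached 10 CPM in PC or RACM. Closest to Rgs4 were Cckar, a cholecystokinin receptor (distance 0.56), Th, tyrosine hydroxylase of catecholamine synthesis (0.60), and Isl1, a transcription factor of the sinoatrial node (0.65). Closest to Rgs2 were Rassf4, of the RASSF family (0.57), Ucp2, a mitochondrial uncoupling protein (0.62), and Npy1r, a neuropeptide Y receptor (0.62). Among the closest to Rgs5 were Mmp2, a matrix-degrading gelatinase (0.44), and Tek, an angiopoietin receptor of endothelium (0.66). Mmp2 was at 21.5, 9.03 and 27.1 CPM in PC and 37.4, 66.5 and 172 CPM in RACM, with RACM p4 highest as for Rgs5.

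The test of the p number asked whether the genes differed between libraries titled p0, p2 and p4. None of the 9 listed genes passed edgeR's F test of the p number in a model with cell type, where 0.00555% of all genes (1 gene) passed. Unadjusted values lay below 0.05 for 3 of the 9, against 11.9% of all genes. These were Rgs5, Rgs6 and Rgs12, with edgeR adjusted p = 0.408, 0.366 and 0.258. Rgs5 passed with no filter (adjusted p = 0.00888), without PC p0 (0.00355) and without RACM p0 (0.0295). Rgs4 was highest in p2 of PC and in p4 of RACM (edgeR adjusted p = 0.947).

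Lists of other genes of the G-protein cycle were read beside the RGS genes. Their counts of calls stand beside 3.69% called higher and 3.57% called lower in PC over all genes tested. The lists were chosen with earlier results of these data known, so these counts support nothing beyond these genes. Of 11 alpha subunit genes tested, none passed the edgeR test. With the replicate block 1 rose and 1 fell, and DESeq2 called Gnao1 (adjusted p = 0.0206). At 451 ± 57.2 CPM in PC against 302 ± 36.5 CPM in RACM, Gnao1, the Go alpha gene and a substrate of Rgs4 and Rgs6, came nearest (log2 fold change 0.58 ± 0.17, edgeR adjusted p = 0.0779, and adjusted p = 0.0172 with the block). Gnai3, a Gi alpha gene, was at 40.2 ± 4.08 CPM against 59.7 ± 11.9 CPM (adjusted p = 0.119). Of 12 beta and gamma subunit genes 1 fell, Gng12 (25.2 ± 2.11 against 46.4 ± 4.83 CPM, adjusted p = 0.0199), a call that did not hold when p0 or p4 of PC or p2 or p4 of RACM was left out (from 0.0576 to 0.0961) or without both p4 libraries (0.107). Gng11 had a log2 fold change of 0.74 and did not pass (adjusted p = 0.105).

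Among other regulators of the cycle, 2 of 11 fell and none rose. Grk5, a kinase that desensitises receptors, fell from 72.6 ± 7.47 in RACM to 31.3 ± 2.94 CPM in PC (log2 fold change -1.21 ± 0.17, edgeR adjusted p = 0.004). Arrb2, a beta-arrestin, was at 4.11 against 13.5 CPM (adjusted p = 0.0426), a call that limma-voom did not make (0.0706) and that failed when any 1 PC library, or p2 or p4 of RACM, was left out (from 0.101 to 0.182) or without both p4 libraries (0.241). Of 12 receptor genes, 6 rose and 1 fell (58.3% called, against 7.27% of all genes tested). S1pr3, a sphingosine 1-phosphate receptor, rose from 18.1 ± 8.70 to 197 ± 14.4 CPM (log2 fold change 3.44 ± 0.32, edgeR adjusted p = 5.25e-04). Adora1, the Gi-coupled adenosine A1 receptor, rose from 9.72 ± 2.56 to 54.7 ± 8.86 CPM (log2 fold change 2.49 ± 0.25, adjusted p = 8.29e-04), with 20.1% of its exon sequence inside other annotated genes. Chrm2, the M2 receptor gene through which acetylcholine slows the node, did not differ detectably, at 231 ± 9.75 CPM in PC against 221 ± 13.6 CPM in RACM (log2 fold change 0.06 ± 0.14, adjusted p = 0.856). Chrm2 and Gnb5 were named for their known roles, after their values were seen.

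Chrm3, the Gq-coupled M3 receptor gene, fell. It had no count in PC and 48 in RACM, at least 17.5-fold lower in PC against a floor of 3 counts over the 3 PC libraries (edgeR adjusted p = 0.0245), a call lost without any 1 of the 6 libraries (adjusted p from 0.0517 to 0.116). Of 13 effector genes tested, 2 rose and 2 fell. Plcb1, a phospholipase C that Gq activates, rose from 2.29 ± 0.275 to 18.8 ± 5.99 CPM (log2 fold change 3.03 ± 0.34, edgeR adjusted p = 0.00132). Adcy1, a calcium-stimulated adenylyl cyclase, fell from 47.6 ± 0.990 to 21.6 ± 3.64 CPM (log2 fold change -1.14 ± 0.19, adjusted p = 0.00894). The lists' median log2 fold changes were -0.08 for alpha subunits, -0.28 for beta and gamma subunits, -0.25 for other regulators, 0.62 for receptors and -0.05 for effectors, beside 0.01 over all genes.

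**Figure D5:**
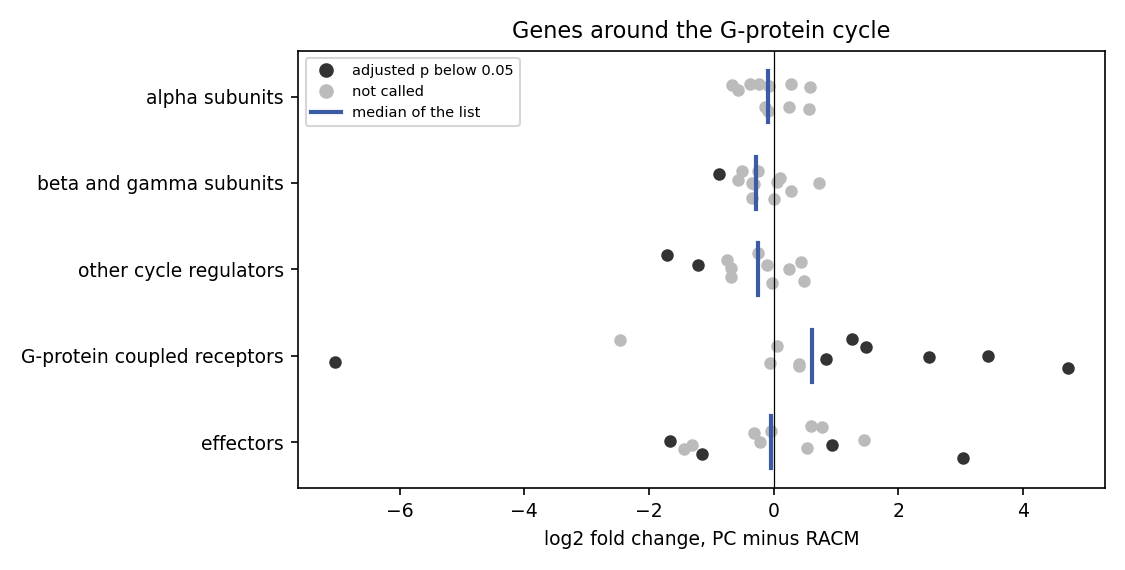
Log2 fold change of PC minus RACM for the tested genes of 5 lists around the G-protein cycle, 1 point per gene with random vertical scatter; dark points passed the edgeR test at an adjusted p below 0.05 and blue lines are list medians. The receptors hold 7 of the 14 dark points, and the point at -7.04 is Chrm3, whose fitted value depends on the prior count because PC had no count.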

How the data were processed

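The authors deposited raw counts per gene and library. FeatureCounts 2.0.1 counted read pairs over mm10 exons with no strand setting, per the file headers, and the submitters' processing notes name Trimmomatic, HISAT2 and edgeR without versions. RNA was amplified before paired-end sequencing, per the labels' protocols. Symbols were found for 55141 of 55487 gene IDs. In R 4.3.3, edgeR 4.0.16 fitted a quasi-likelihood model on TMM-scaled counts and tested PC minus RACM on both sides. The filter, filterByExpr grouped by cell type with a count of 10 and a total of 15 as minima, left 18015 genes. Adjustment was by Benjamini-Hochberg over these, with a threshold of 0.05. SE was obtained as the size of the log2 fold change over the square root of F. CPM used TMM-scaled library sizes, and RPKM was CPM per kilobase of exon.

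Each library is called a biological replicate in the labels. Libraries of the same p number deviated together (correlations of 0.156, 0.234 and 0.237 between PC and RACM for p0, p2 and p4). Between libraries of unlike number the correlations ran from -0.185 to -0.0015. Deviations were taken from the mean of each cell type, so these correlations are not independent of one another. On the evidence of these counts alone, the number served as the replicate block of an alternative fit. The main fit of PC against RACM had cell type only and did not pair the libraries. No replicate pair agreed within sampling noise (chi-square over its degrees of freedom from 29.0 to 74.7).

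Other settings were RLE or upper-quartile scaling, no filter, a 5 CPM filter, the replicate block, DESeq2 1.42.0, limma-voom from limma 3.58.1, and leaving out each library. Leaving out both p4 libraries was chosen after seeing the data. Exact binomial intervals at 95% and the floor of 3 counts take in counting error alone. The intervals pool the 3 libraries of each cell type and leave out the spread between libraries. Amplification copies molecules, so even for counting error they may be too narrow. The fitting code was tested on simulated data. The 10 genes and all lists were chosen with earlier results of these data known. The text names the 10 genes, other RGS genes that were called, highest or neighbouring, the 2 genes of smallest p in each list and any first call against their direction, and the 3 patterns nearest to Rgs4, Rgs2 and Rgs5. Some genes that this rule or the marker lists hold are not reported here.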

Additional observations from a re-analysis of the deposited data

How the results depend on the processing

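Over 18015 genes, 1309 were called, and 2339 with no filter, 2082 with the replicate block, 2304 by DESeq2 and 734 without both p4 libraries, with a range from 511 to 1338 when 1 library was left out. The listed RGS genes called higher in PC stayed at 3 or 4 under every alternative, Rgs12 being the one lost. Those called lower numbered 2 with no filter or with the replicate block, and from 1 to 2 with 1 library left out, Rgs5 being the one gained. The replicate block changed no other call of a listed gene.

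The log2 fold change of Rgs10 became -0.0145 with upper-quartile scaling, -0.0371 with the 5 CPM filter, and from -0.28 to 0.37 with 1 library left out (-0.15 without PC p0). With 1 library left out, that of Rgs7 ran from -0.23 to 1.16 (-0.21 without PC p2), that of Rgs11 from -0.58 to 0.0821 and that of Rgs22 from -0.0311 to 1.21. The cause was not tested. None of these genes was called under any alternative.

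The p number called 720 genes with no filter and from 77 to 458 with 1 library left out, where 1 residual degree of freedom remains, and from 0 to 1 listed gene in these fits. The summed level in RACM was 87.2 RPKM over all 24 RGS genes, against 72.5 over the 10. Rgs14 had too few counts to test. The counts of Rgs9 lay mostly in 1 library, and those of Rgs8 were 16, 62 and 7 in PC. Neither reached the minimum of the filter in 3 libraries.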

Other observations

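Rgs9, an R7 regulator known from photoreceptors and striatum, had 90 counts in PC p4 and at most 6 in any other library, so its level in PC rests on 1 library. Rgsl1, an RGS-like gene beside Rgs16, had 7 counts, all in RACM p4. Rgs19 and Rgs17, small regulators of Gi and Gz, had higher levels in each RACM library than in any PC library without passing the edgeR test. Rgs19 was at 5.73, 1.75 and 3.35 CPM in PC and 7.37, 7.82 and 13.2 CPM in RACM (adjusted p = 0.134), and passed by DESeq2 (adjusted p = 0.0433). Rgs17 was at 0.389, 0.564 and 0.707 CPM in PC and 0.827, 1.02 and 5.71 CPM in RACM (adjusted p = 0.185). RACM p4 was the highest library for both. These genes were chosen after their values were seen.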
